A study of Homo sapiens and Mus musculus with 30 samples.

Results

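Ribose methylation of ribosomal RNA (rRNA) was compared between endoderm and the pluripotent cells it was made from, in 3 human lines. The members were chosen by their labels: the endoderm sample and the undifferentiated sample of each line, 6 of the 30 samples of the series. H9 and HUES4 are human embryonic stem cell lines and KOLF2 is an induced pluripotent stem cell line, all of unedited genotype, grown without feeder cells on Matrigel, H9 and HUES4 in mTeSR1 and KOLF2 in TeSR-E8 medium. Endoderm was made from each with a commercial trilineage differentiation kit, and no duration is given in the sources used here. Each sample had 3 libraries, except undifferentiated H9 with 6, so that 9 endoderm libraries stood against 12 pluripotent ones. The same lines differentiated to mesoderm with the same kit lent their spread to the comparison of the 3 lines. Undifferentiated H9 clones served as a further reference: 2 clones with SNORD52 knocked out by CRISPR-Cas9 and 2 clones that overexpress SNORD52 from a constitutive transgene. The deposited counts cover rRNA and small RNA, of which only rRNA was used here. Messenger RNA was not measured, so that the identity of the endoderm could not be checked against marker genes. A sample is a mixture of cells, and fewer ribosomes methylated in every cell cannot be told apart from fewer cells with fully methylated ribosomes.

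A 2′-O-methyl group is placed on the ribose of an rRNA nucleotide by fibrillarin, the enzyme of the box C/D ribonucleoprotein. A box C/D small nucleolar RNA (snoRNA, SNORD) pairs with the rRNA next to the site and so selects the nucleotide, and most of these guides are cut from introns of host genes. Many sites lie in the functional centres of the ribosome, and sites that are methylated in only part of the ribosomes are a source of ribosome heterogeneity.

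The assay was RiboMeth-seq. RNA is broken by alkali and the read ends are counted at each nucleotide. The methyl group protects the neighbouring bond, so a methylated nucleotide has few read ends. The score is 1 minus the ratio of a position's read ends to a weighted average of those around it. It is 0 with no protection and 1 with no read ends, and it is not an absolute stoichiometry. Site names such as 28S Um4197 give the rRNA, the methylated base and a number from snoRNA target tables. In 18S rRNA the number equals the position in the deposited sequence, while in 28S rRNA the positions lie further along. The rRNA genes are repeated in arrays on the short arms of the acrocentric chromosomes, and the assay does not separate the copies.

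The sequences around the sites that the results turn on are printed as spelled in the deposited files, with 14 nucleotides on each side and the methylated nucleotide in capitals. The first 3 had the largest falls, at 28S position 4227, 18S position 436 and 18S position 797. The fourth is the other target of the guide of 18S Cm797. It lies within the same window, so that each of these sites is a neighbour in the score of the other.
28S Um4197: aacgguaacgcaggUguccuaaggcgagc
18S Gm436: uucgauuccggagaGggagccugagaaac
18S Cm797: cgcggggcccgaagCguuuacuuugaaaa
18S Um799: cggggcccgaagcgUuuacuuugaaaaaa
The next 2 sites, at 18S position 867 and 28S position 2400, are those that rose in the 3 lines with and without scaling and in matched H9 libraries, and 18S Um428 is the second target of the guide of 28S Am2388.
18S Gm867: cagcuaggaauaauGgaauaggaccgcgg
28S Am2388: gaaggccgaaguggAgaaggguuccaugu
18S Um428: aaucaggguucgauUccggagagggagcc
The last 3 are a pair of neighbouring sites of the SNORD45 guides, of which 18S Cm174 differed most between lines, and the SNORD52 target at 28S position 3925, whose direction depended on the libraries compared.
18S Um172: aauucuagagcuaaUacaugccgacgggc
18S Cm174: uucuagagcuaauaCaugccgacgggcgc
28S Um3904: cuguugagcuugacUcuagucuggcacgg

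The 21 libraries held between 1997206 and 40895844 read ends, and the shallowest 2 were KOLF2 endoderm libraries with 1997206 and 3380589. The neighbours of a tested site carried at least 151.5 read ends on average in every library. Undifferentiated H9 libraries carried indexes 1 to 6, HUES4 and KOLF2 undifferentiated libraries indexes 1 to 3, and all endoderm libraries indexes 4 to 6. Endoderm and undifferentiated libraries shared no library number, so that the library batch and the differentiation cannot be told apart. The median score of a sample was 0.933, 0.938 and 0.954 in undifferentiated H9, HUES4 and KOLF2 and 0.891, 0.897 and 0.904 in their endoderm. It was 0.933 and 0.942 in the knock-out clones but 0.898 and 0.904 in the overexpression clones, which are undifferentiated cells within the range of endoderm. Among the endoderm libraries themselves, the library with the lowest score had the same index in all 3 lines at 64 of 108 sites. The SD over lines in endoderm therefore leaves out a spread between libraries that the lines share.

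Across the 3 lines more sites were lower than higher in endoderm. Of 108 tested sites 50 were called (46.3%): 46 fell (42.6%) and 4 rose (3.7%) by limma with Benjamini-Hochberg adjustment at 0.05 and the cell line as a block. The median difference over all tested sites was -0.0306, and 69 sites were lower and 6 higher in endoderm in all 3 lines. The scores of the groups did not overlap at 63 sites (58.3%). Dividing a library's scores by their upper quartile, which sets aside the lower general level, gave 42 calls (38.9%), of which 24 fell (22.2%) and 18 rose (16.7%). Rises made up 8% of the unscaled and 42.9% of the scaled calls. All 24 falls were among the 46, and all 4 rises among the 18. H9 endoderm was also set against undifferentiated H9 libraries with equal indexes, where 51 sites were called (47.2%), 45 as falls (41.7%) and 6 as rises (5.56%). Of the 46 falls 32 were called there, 69.6% of the first and 71.1% of the second list. That comparison takes the libraries of 1 sample per state as units, so that its p-values measure the spread between libraries. The same libraries are part of the comparison of 3 lines, so that the shared calls are not independent. Among the matched H9 libraries, leaving out index 4 ended every call, with 36 sites at an unadjusted p below 0.05, and leaving out index 5 left 18. Without HUES4 the scaled comparison had 1 call, at 28S Um4197, and without KOLF2 it had 11. Of the sites called in the 3 lines, 20 fell in all of these comparisons and 2 rose. Of 6922 scored positions outside the catalogue, 2419 met the same minimum mean score and neighbour count and were fitted in the same way. Of these 2419, 427 were called (17.7%), with 275 higher (11.4%) and 152 lower (6.28%) and a median difference of 0.0353.

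**Figure D1:**
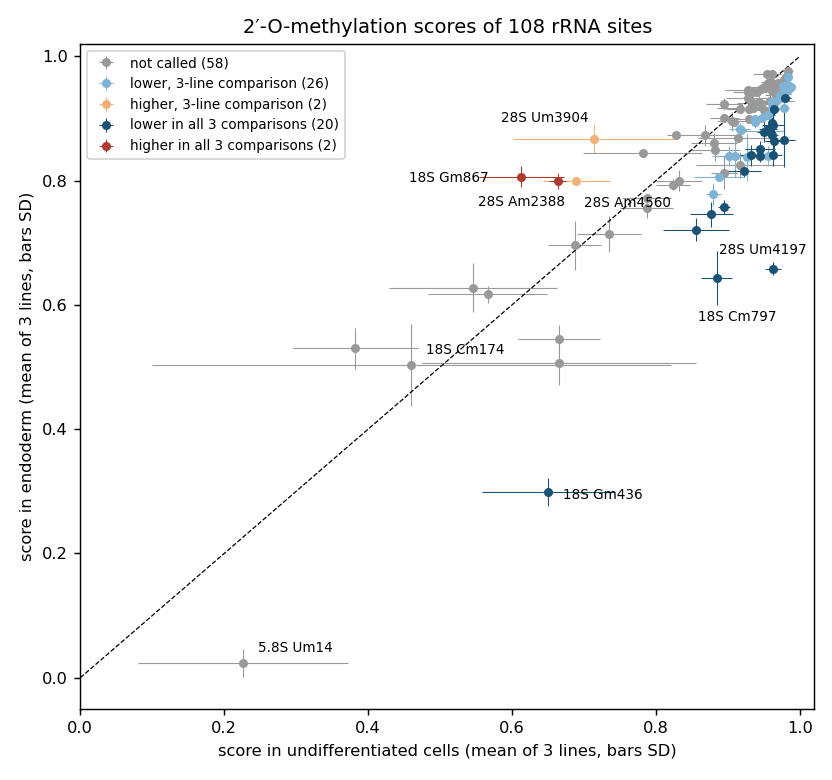
Score of each of the 108 tested sites in undifferentiated cells (x axis) and in endoderm (y axis), as means of 3 lines with bars for the SD over lines, and a dashed line where both are equal. Most sites lie close to 1 and just below the line, 28S Um4197, 18S Gm436 and 18S Cm797 lie far below it, and 18S Gm867 and 28S Am2388 lie above it.

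28S Um4197 lies in domain V of the large subunit rRNA, the domain that forms the peptidyl transferase centre, and the catalogue lists no guide for it. Its score was 0.961, 0.975 and 0.954 in undifferentiated H9, HUES4 and KOLF2 and 0.666, 0.647 and 0.663 in their endoderm. All 12 undifferentiated libraries lay between 0.944 and 0.983 and all 9 endoderm libraries between 0.507 and 0.721, so that the groups did not overlap even library by library. The site fell by 0.305 on the score scale, with an SE of 0.0181 (limma, adjusted p = 1.90e-05). It was at 0.946 and 0.930 in the knock-out clones and at 0.945 and 0.937 in the overexpression clones, so that every undifferentiated sample lay above every endoderm sample. Mesoderm of the same lines had 0.827, 0.865 and 0.876, between the others. The neighbouring nucleotide 28S Gm4198, the target of SNORD58, fell by 0.0169 with an SE of 0.00409 (limma, adjusted p = 0.00853).

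The fall at 28S Um4197 was seen in one kind of read end. Counted from 5′ ends alone, the score was 0.954 ± 0.0195 (SD over 3 lines) in undifferentiated cells and 0.498 ± 0.00692 in endoderm, 0.455 lower with an SE of 0.0238 (limma, adjusted p = 2.77e-05). Counted from 3′ ends alone, it was 0.978 ± 0.00891 and 0.970 ± 0.00370, with a difference of -0.00757 ± 0.00501 (SE, limma, adjusted p = 0.228). The lowest 3′ score among the endoderm libraries was 0.956. Why the kinds of end differed was not tested.

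18S Gm436, in the 5′ domain of the small subunit rRNA and guided by SNORD100, had the opposite pattern of ends. Its score was 0.605, 0.756 and 0.589 in undifferentiated H9, HUES4 and KOLF2 and 0.318, 0.274 and 0.306 in endoderm. The groups did not overlap, and the site fell by 0.351 with an SE of 0.0614 (limma, adjusted p = 0.00227). Counted from 5′ ends, the score was 0.689 and 0.665, with a difference of -0.0246 ± 0.0506 (SE, limma, adjusted p = 0.728). Counted from 3′ ends it was 0.613 and 0.132, with a difference of -0.481 ± 0.0965 (SE, limma, adjusted p = 0.00627). Within endoderm the score followed the index: it was 0.310, 0.276 and 0.344 at index 4 in H9, HUES4 and KOLF2, 0.173, 0.131 and 0.133 at index 5, and 0.470, 0.416 and 0.442 at index 6. Undifferentiated H9 at those indexes had 0.610, 0.599 and 0.607, close to each other. The overexpression clones had 0.194 and 0.208, below every endoderm sample, and the knock-out clones 0.539 and 0.571. A low score at this site was thus also seen in undifferentiated cells. Mesoderm of H9, HUES4 and KOLF2 had 0.283, 0.322 and 0.293, as low as endoderm.

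18S Cm797, in the central domain and guided by SNORD105, had 0.881, 0.908 and 0.864 in undifferentiated H9, HUES4 and KOLF2 and 0.605, 0.636 and 0.691 in endoderm. It fell by 0.240 with an SE of 0.0321 (limma, adjusted p = 0.000801), and the samples did not overlap, although 1 KOLF2 endoderm library reached 0.840, within the range of the undifferentiated libraries. All 4 edited clones lay between 0.826 and 0.865, above endoderm. Counted from 5′ ends the difference was -0.0565 ± 0.00970 (SE, limma, adjusted p = 0.00631) and from 3′ ends -0.341 ± 0.0442 (adjusted p = 0.00269), so that both kinds of end gave a fall, of unequal size. Mesoderm had 0.544, 0.546 and 0.626, as low as endoderm.

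The other 9 of the 12 largest falls called in the 3 lines, after scaling and among matched H9 libraries had differences from -0.137 to -0.0941. 28S Gm4588, a target of SNORD91, was at 0.904, 0.891 and 0.890 in undifferentiated H9, HUES4 and KOLF2 and at 0.750, 0.771 and 0.751 in endoderm (limma, adjusted p = 0.00227). The clones lay between 0.829 and 0.872, so that the endoderm sample means were below all undifferentiated samples at this site. By index, the endoderm libraries of 28S Gm4588 averaged 0.788 at index 4, 0.844 at index 5 and 0.641 at index 6. The mean at index 5 lay within the range of the clones. 28S Am2774, a target of SNORD99, was at 0.804, 0.873 and 0.890 against 0.701, 0.728 and 0.735 (adjusted p = 0.000801), but the knock-out clones had 0.693 and 0.693. 18S Um172, a target of the SNORD45 guides, was at 0.902, 0.886 and 0.844 against 0.745, 0.726 and 0.767 (adjusted p = 0.00470). The overexpression clones had 0.754 and 0.766 there, within the range of endoderm. At 18S Um172 the endoderm libraries averaged 0.763, 0.820 and 0.654 at indexes 4, 5 and 6.

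28S Gm4340, a target of SNORD60 in domain V, was at 0.949, 0.966 and 0.974 in undifferentiated H9, HUES4 and KOLF2 and at 0.834, 0.830 and 0.862 in endoderm (limma, adjusted p = 0.00203). The overexpression clones were lower still, at 0.770 and 0.741. The sites of SNORD79 (28S Am3809), SNORD74 (28S Cm3820), SNORD11 (18S Gm509), SNORD80 (28S Gm1612) and SNORD83 (18S Am468) had undifferentiated means between 0.923 and 0.979 and endoderm means between 0.815 and 0.866. Among these, endoderm lay below all 4 clones only at 28S Gm1612, where the clones had 0.892 to 0.921 and endoderm 0.855, 0.848 and 0.888. Of the 12 sites, 6 were called lower from each kind of read end: 18S Cm797, 28S Gm4588, 18S Um172, 28S Gm4340, 28S Am3809 and 18S Gm509. Of all 46 falls, 15 were.

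**Figure D2:**
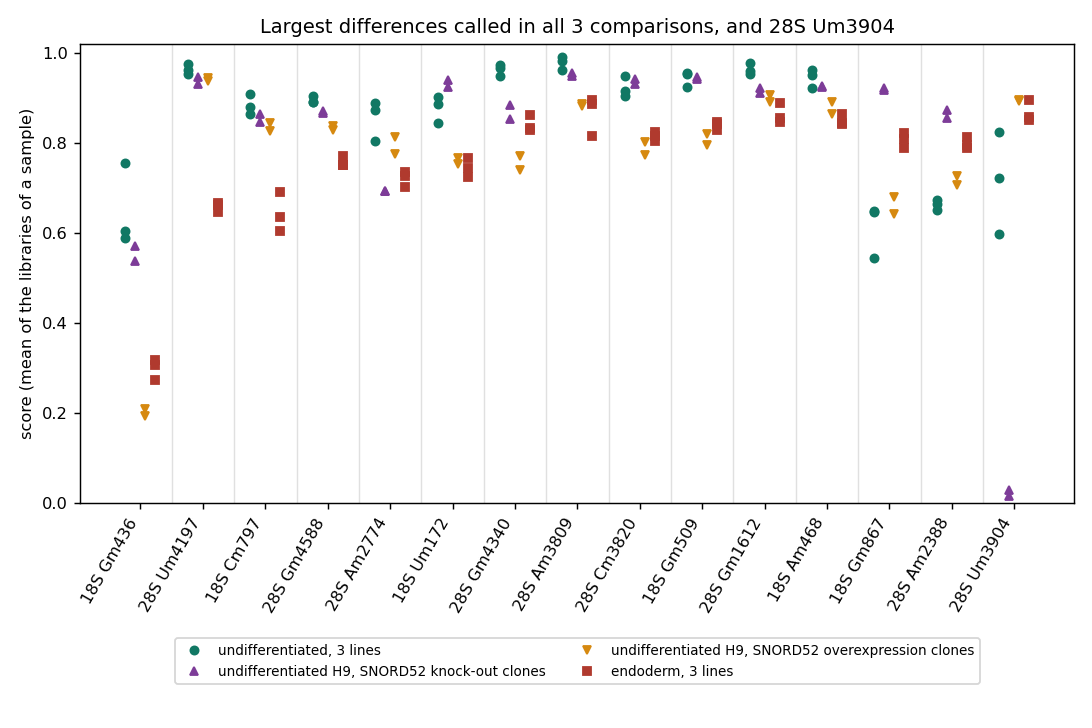
Score of each sample (mean of its libraries, y axis) at the 12 largest falls and the 2 rises called in all 3 comparisons, and at 28S Um3904, for the 3 undifferentiated lines, the 4 edited undifferentiated H9 clones and the 3 endoderm samples. Endoderm lies below every undifferentiated sample at 28S Um4197, 18S Cm797, 28S Gm4588 and 28S Gm1612, while the overexpression clones reach or pass endoderm at sites such as 18S Gm436 and 28S Gm4340.

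**Figure D3:**
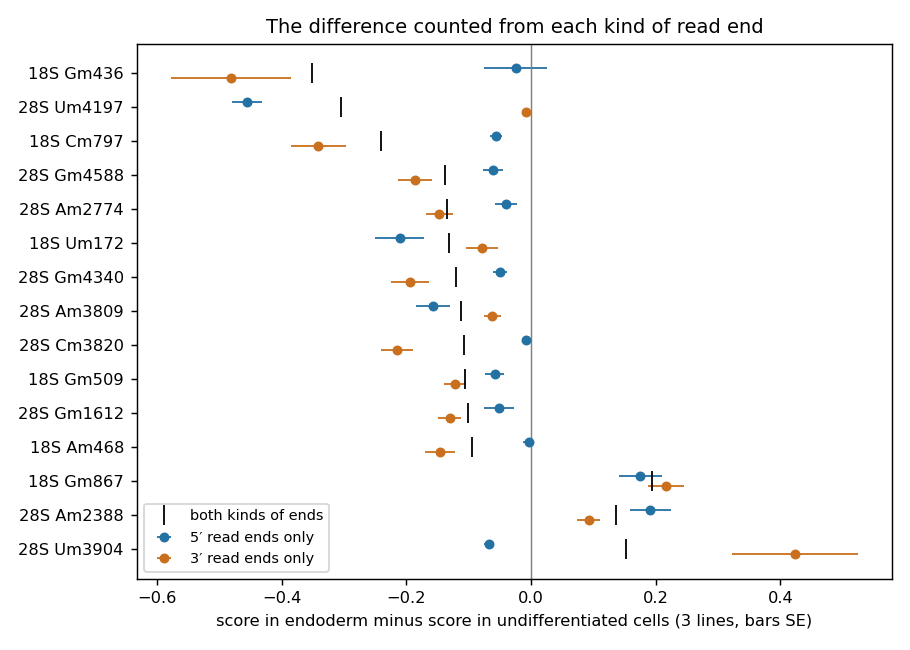
Difference between endoderm and undifferentiated cells at the same 15 sites, counted from 5′ read ends (blue), 3′ read ends (orange) or both (black ticks). Bars show the SE of the limma fit, to which mesoderm lent its spread. At 28S Um4197 the 5′ difference is -0.455 and the 3′ difference -0.00757, at 18S Gm436 the difference lies in the 3′ ends, and at 28S Um3904 both have opposite signs.

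Set against the edited clones, few sites were called where both genotypes formed 1 group. That fit had no term for genotype, so that differences between knock-out and overexpression clones counted as spread. At 18S Gm436 the SE was 0.118 with all 4 clones, 0.0263 with the knock-out and 0.0333 with the overexpression clones. A low count there does not show that endoderm and the clones were alike. With all 4 clones as reference, 2 sites were called (1.85%), 18S Cm797 and 28S Um4197, both lower in endoderm, while an unadjusted p below 0.05 was found at 28 sites. After scaling 10 were called (9.26%), 9 lower (8.33%) and 1 higher (0.926%). With the knock-out clones alone 73 sites were lower (67.6%) and 13 higher (12%), 79.6% in all, and with the overexpression clones alone 19 were lower (17.6%) and 18 higher (16.7%), 34.3% in all. The clones of a genotype share a library number, which differs from that of endoderm. Of the 46 falls across the 3 lines, 39 were also called against the knock-out clones and 14 against the overexpression clones. Every endoderm sample lay below all 7 undifferentiated samples, unedited and edited, at 17 of 108 sites (15.7%). Of the 46 falls, 14 were among these: 18S Am27, Am99, Um121, Cm797 and Gm1328, and 28S Gm1509, Gm1612, Cm2811, Um2824, Um4197, Gm4198, Um4468, Gm4469 and Gm4588. This list was made after the values were seen. Of the 108 sites, 0 had every endoderm sample above all 7. Every endoderm sample lay below all 3 mesoderm samples at 6 of the 46 falls and at 8 of all 108 sites.

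The 2 sites that rose in the 3 lines, after scaling and among matched H9 libraries were among the less methylated ones. 18S Gm867, a target of SNORD98, had 0.646, 0.648 and 0.545 in undifferentiated H9, HUES4 and KOLF2 and 0.789, 0.808 and 0.823 in endoderm. It rose by 0.194 ± 0.0314 (SE, limma, adjusted p = 0.00203), and the groups did not overlap. Mesoderm of the same lines had 0.770, 0.822 and 0.793, close to endoderm. The overexpression clones had 0.681 and 0.643, like the unedited cells, whereas the knock-out clones had 0.918 and 0.922, above endoderm. 28S Am2388, a target of SNORD68, had 0.665, 0.674 and 0.651 against 0.789, 0.796 and 0.814, and rose by 0.136 ± 0.0220 (SE, limma, adjusted p = 0.00203). The knock-out clones were higher here too, at 0.856 and 0.873. Against the knock-out clones both sites were thus called lower in endoderm, with differences of -0.113 and -0.0650 (limma, adjusted p = 1.22e-12 and 0.000156). Those p-values rest largely on the spread pooled over sites. The clones are all H9 and carry another library number, so that state, line, edit and batch cannot be told apart there. Both sites were called higher from 5′ ends alone and from 3′ ends alone, by 0.175 and 0.216 for 18S Gm867 and 0.192 and 0.0923 for 28S Am2388.

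The other 2 rises of the 3 lines were not called as rises between H9 libraries of equal index. 28S Um3904, the target of SNORD52, had 0.825, 0.598 and 0.722 in undifferentiated H9, HUES4 and KOLF2 and 0.857, 0.851 and 0.895 in endoderm. It rose across the lines by 0.153 ± 0.0369 (SE, limma, adjusted p = 0.00853), but without HUES4 this was no longer called (0.103, adjusted p = 0.0961). Counted from 5′ ends 28S Um3904 fell by 0.0672 with an SE of 0.00762 (adjusted p = 0.00256), and from 3′ ends it rose by 0.424 ± 0.101 (adjusted p = 0.0105). In undifferentiated H9 the site had 0.706 ± 0.112 (SD over 3 libraries) at indexes 1 to 3 and 0.943 ± 0.0538 at indexes 4 to 6. The H9 endoderm libraries, at indexes 4 to 6, had 0.857 ± 0.0470 and were below the latter by limma (difference -0.0858 ± 0.0156, adjusted p = 0.0137). The knock-out clones, which lack the guide, had 0.0302 and 0.0158. 28S Am4560, a target of SNORD119 named after its values were seen because it was the remaining rise, had a difference of 0.109 ± 0.0250 (adjusted p = 0.00691) in the lines but 0.00989 ± 0.0186 (adjusted p = 0.700) in H9 at equal indexes. Between the index sets of undifferentiated H9, limma called 0 of 108 sites (0%), and 8 had an unadjusted p below 0.05. 28S Um3904 was not called there (difference 0.237 ± 0.0546, adjusted p = 0.322). 18S Am1383, a target of SNORD30, was the other site with opposite calls. It rose after scaling (0.0460, adjusted p = 0.00333) and fell among matched H9 libraries (-0.0168, adjusted p = 0.0147), and was not called in the unscaled comparison (0.0174, adjusted p = 0.136).

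Guides with 2 targets allow a comparison of sites that depend on the same snoRNA. Of 8 such guides compared, 1 had both targets called in the same direction in the unscaled 3 lines: SNORD24. Its sites 28S Cm2338 and Cm2352 fell by 0.0353 and 0.091. From 3′ ends alone both fell (-0.0578 and -0.172). From 5′ ends alone neither was called (0.00463 and -0.00878, limma, adjusted p = 0.532 and 0.563). The SNORD45 guides also share targets but were not among the 8. Of their sites, 18S Um172 fell, while 18S Am159 (-0.00625) and Cm174 (0.0429) were not called. Which guide had 2 targets called alike depended on the comparison. After scaling 28S Cm2338 was not called (-0.00942, adjusted p = 0.372), and both targets of SNORD30 rose. Among matched H9 libraries both targets of SNORD24 and of SNORD80 fell, as did the SNORD45C targets 18S Um172 and Cm174. At SNORD105, 18S Cm797 fell by 0.240 (95% confidence interval -0.315 to -0.166), whereas 18S Um799 had 0.915, 0.947 and 0.925 in undifferentiated cells and 0.910, 0.917 and 0.916 in endoderm and was not called (-0.0143, interval -0.0373 to 0.00870). At SNORD68, 28S Am2388 rose by 0.136 (interval 0.0850 to 0.187), whereas 18S Um428 was not called (-0.0148, interval -0.0622 to 0.0327). At SNORD80, 28S Gm1612 fell by 0.1004 (interval -0.142 to -0.0590), whereas 28S Am1521, which SNORD77 also guides, was not called (-0.0162, interval -0.0403 to 0.00800). At these 3 guides the intervals of both targets did not overlap in the unscaled 3 lines. At SNORD80 this was not so among matched H9 libraries, where 28S Am1521 fell too (-0.0377, interval -0.0566 to -0.0187, adjusted p = 0.0177) and 28S Gm1612 had an interval of -0.152 to -0.0402. The difference between the targets was not itself tested.

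At SNORD95, 28S Cm2811 fell by 0.0888, while 28S Am2802 had a difference of -0.000258 (interval -0.0183 to 0.0177). At SNORD32, 18S Gm1328 fell by 0.0613, and 28S Am1511, also a target of SNORD51, was not called (-0.0921, interval -0.246 to 0.0617). Among matched H9 libraries 28S Am1511 was called as a rise. At indexes 4, 5 and 6 it had 0.923, 0.944 and 0.681 in H9 endoderm and 0.880, 0.891 and 0.565 in undifferentiated H9. Neither target of SNORD30 (18S Am1383 and 28S Am3804) nor of SNORD36 (18S Am668 and 28S Am3703) was called unscaled, with differences between -0.0820 and 0.0177. After scaling both targets of SNORD30 rose, by 0.0460 and 0.0456, and neither of SNORD36 was called. The amount of each snoRNA was not measured here.

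**Figure D4:**
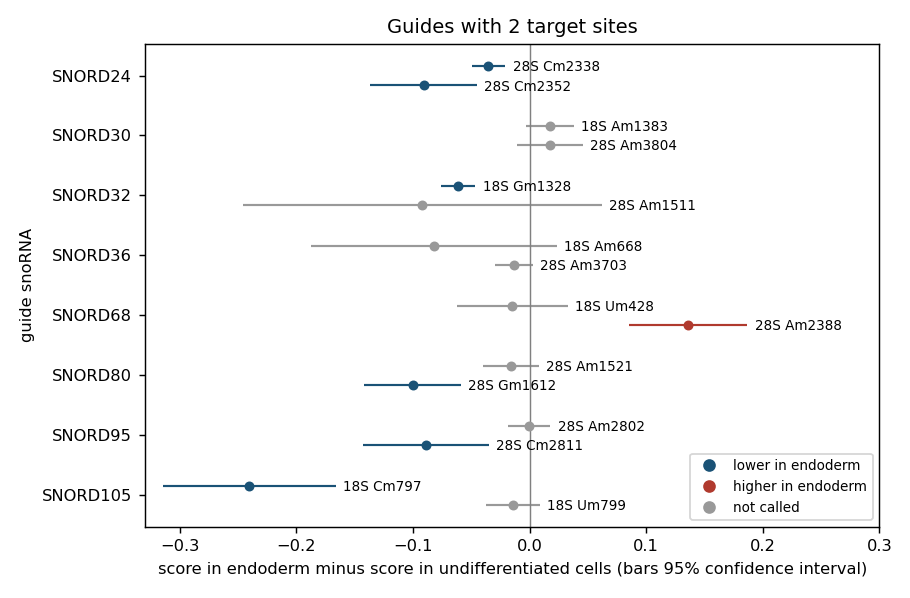
Difference between endoderm and undifferentiated cells (x axis, bars for the 95% confidence interval) at both targets of 8 guides, coloured by call. Both targets of SNORD24 fell, while at SNORD105, SNORD68 and SNORD80 only 1 of the 2 sites was called and the intervals do not overlap in this unscaled 3-line comparison.

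The falls were spread over both subunits. In 18S rRNA 17 of 39 tested sites fell and 1 rose, with a median difference of -0.0183, and in 28S rRNA 29 of 67 fell and 3 rose, with a median of -0.0327, beside 46 of 108 (42.6%) and -0.0306 over all tested sites. After scaling 10 fell and 8 rose in 18S rRNA, and 14 fell and 9 rose in 28S rRNA. In the 28S stretch from Gm4166 to Cm4506, which holds the peptidyl transferase centre, 8 of 12 fell and 0 rose (median -0.0373). After scaling 4 fell and 1 rose there (median -0.0117), and among matched H9 libraries 6 fell. The 8 included 28S Um4468 and Gm4469, neighbours in the A loop, which receives the aminoacyl-tRNA. 28S Gm4469 fell from 0.956 ± 0.00590 to 0.840 ± 0.0158 (SD over 3 lines, limma, adjusted p = 0.00456), but was not called among matched H9 libraries (-0.117 ± 0.0405, adjusted p = 0.0588). In the 28S stretch from Gm3606 to Cm4032, 6 of 21 fell and 1 rose (median -0.0246). In the 28S stretches from Am389 to Cm1868 and from Cm2338 to Gm2863, 4 of 13 and 8 of 15 fell, and from Am4541 to Gm4607 3 of 6. In 18S rRNA 10 of 21 sites fell from Am27 to Gm644, 2 of 6 from Am668 to Am1031 and 5 of 10 from Cm1272 to Am1678. 18S Cm1703 and Um1804, at the 3′ end, were not called unscaled (median difference 0.0237) and rose after scaling.

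By base, 12 of 34 methylated A sites fell and 2 rose, 10 of 23 C sites fell and 0 rose, 15 of 32 G sites fell and 1 rose, and 9 of 19 U sites fell and 1 rose, beside 46 falls and 4 rises in 108. The medians were -0.0164, -0.0299, -0.0321 and -0.0330. After scaling the A sites had 7 falls and 10 rises and their median turned to 0.0104, while C, G and U sites had 4, 8 and 5 falls and 3, 2 and 3 rises. By level, 29 of 65 sites with a mean score of both states of 0.9 or more fell and 0 rose, with a median of -0.0246, and 14 of 25 between 0.8 and 0.9 fell and 0 rose, with a median of -0.0820. The 18 sites below 0.8 held 3 falls and all 4 unscaled rises. The level was taken from both states, so that a large fall itself lowers the level of a site. Unscaled, a site near 1 has little room to rise. After scaling the sites at 0.9 or more had 11 falls and 12 rises, those between 0.8 and 0.9 had 10 falls and 1 rise, and those below 0.8 had 3 falls and 5 rises. Of the 18 scaled rises 12 lay at 0.9 or more, a share similar to that of all tested sites at this level, 65 of 108.

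Sites were also grouped by the host gene of their guide. GAS5, a non-coding host transcript whose introns carry SNORD74 and SNORD80 among others, guides 10 tested sites, of which 7 fell and 0 rose (median -0.0343). After scaling 3 of them were still called, 28S Gm1612, Am3809 and Cm3820, and among matched H9 libraries 8 of the 10 fell. SNHG1, the host of SNORD30 and SNORD31 among others, guides 8 tested sites, of which 3 fell (median -0.0189): 18S Am27, 18S Gm1490 and 28S Gm4166. After scaling 0 of the 8 were lower and 3 rose. RPL13A, a ribosomal protein gene that hosts SNORD33 and SNORD34 among others, guides 5 tested sites, of which 18S Um1326, 18S Gm1328 and 28S Um2824 fell (median -0.0510). These counts are descriptions beside 46 falls in 108 and show nothing particular to a host gene.

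The scores of the lines lay closer together in endoderm. The SD over lines was larger in undifferentiated cells at 79 of 108 sites, with medians of 0.0166 and 0.00916. The undifferentiated samples came from 3 library numbers and both index sets, and the endoderm samples from 1 library number and 1 index set, so that this cannot be told apart from the batches. Within endoderm, with index as a term, 4 sites differed between the lines by limma's F test (3.7%), and 17 had an unadjusted p below 0.05. 28S Am3809 was at 0.887, 0.815 and 0.896 in H9, HUES4 and KOLF2 (adjusted p = 0.0271), lowest in HUES4. 28S Cm2811 was at 0.814, 0.818 and 0.881 (adjusted p = 0.0271), and 18S Cm1391 at 0.910, 0.927 and 0.948 (adjusted p = 0.0359), both highest in KOLF2. The other was 28S Cm4506, at 0.924, 0.923 and 0.953 (adjusted p = 0.0359), named after its values were seen. No site was called without the index term, after scaling, from 1 kind of end alone, or without index 4 or 5.

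The change from pluripotent cells to endoderm differed between HUES4 and KOLF2, whose libraries had the same indexes at each state, at 14 of 108 sites (13%), with 8 changes higher (7.41%) and 6 lower (5.56%) in HUES4. At 18S Cm174, a target of SNORD45C, undifferentiated HUES4 had 0.538 ± 0.109 (SD over 3 libraries) and KOLF2 0.0669 ± 0.116, with 2 of its 3 libraries at 0. In endoderm they had 0.432 ± 0.173 and 0.562 ± 0.127. The difference was -0.106 in HUES4 and 0.495 in KOLF2, and these differed by -0.601 ± 0.0732 (SE, limma, adjusted p = 0.000655). H9 had 0.775 ± 0.0231 over 6 undifferentiated libraries and 0.515 ± 0.192 over 3 of endoderm. The lines were thus spread from 0.0669 to 0.775 before and from 0.432 to 0.562 after differentiation, and no call was made across the lines (0.0429 ± 0.129, adjusted p = 0.807). The undifferentiated H9 clones had 0.741 and 0.778 without SNORD52 and 0.230 and 0.239 with its overexpression. In endoderm the index 6 library was lowest in every line, at 0.305, 0.235 and 0.419. The neighbouring site 18S Um172 had a smaller spread over undifferentiated lines, with an SD of 0.0299 against 0.360.

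At 5.8S Um14, a target of SNORD71, the scores were 0.264, 0.350 and 0.0649 in undifferentiated H9, HUES4 and KOLF2 and 0.0433, 0.0284 and 0 in endoderm. The groups did not overlap, but the 3-line comparison made no call (-0.202 ± 0.104, adjusted p = 0.136), and HUES4 and KOLF2 differed by -0.257 ± 0.0656 (limma, adjusted p = 0.0410). The undifferentiated KOLF2 libraries had 0, 0.0650 and 0.130, near the floor of the scale, and all KOLF2 endoderm libraries 0. A fall as large as in HUES4 could thus not be seen in KOLF2. Counted from 3′ ends alone, the score was 1 in every library of both states. The knock-out clones, at 0.626 and 0.630, and the overexpression clones, at 0.297 and 0.369, were above endoderm. At 18S Gm436 the difference was -0.482 in HUES4 and -0.283 in KOLF2, and these differed by -0.200 ± 0.0516 (limma, adjusted p = 0.0410). The count of 14 became 0 without the index term or without the first index of each set, and 1, at 18S Cm174, without the second.

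**Figure D5:**
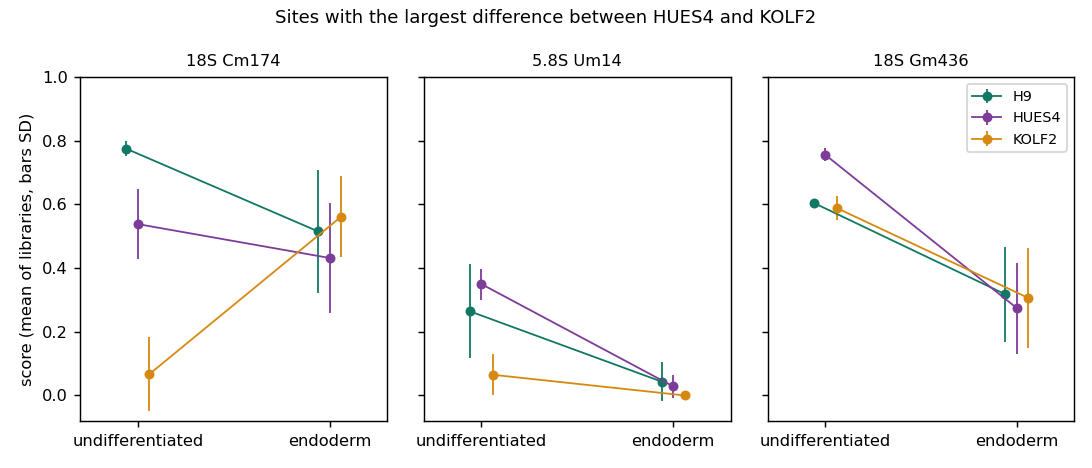
Score at the 3 sites with the largest difference in change between HUES4 and KOLF2, in undifferentiated cells and endoderm of each line (y axis, means of 3 libraries, 6 for undifferentiated H9, with bars for the SD between libraries). At 18S Cm174 KOLF2 goes from 0.0669 to 0.562 while the other 2 lines are lower in endoderm, and at 5.8S Um14 and 18S Gm436 all lines are lower.

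The sites with the smallest differences were 28S Am2802 (-0.000258), 28S Cm2791 (0.000883, interval -0.0186 to 0.0204) and 28S Cm1327 (-0.00157, interval -0.0248 to 0.0216). Their endoderm means of 0.950, 0.948 and 0.916 stood beside 0.950, 0.947 and 0.917 in undifferentiated cells. After scaling 28S Am2802 and Cm2791 were called higher, by 0.0271 and 0.0282. There were 2 sites left out for low scores. 18S Um354, a target of SNORD90, was at 0 in all endoderm libraries and in undifferentiated H9 and HUES4, and at 0.0116 in undifferentiated KOLF2. 18S Um1668 was at 0 in all 6 samples. A score of 0 is the floor of the scale, where negative values are set to 0.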

How the data were processed

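RiboMeth-seq libraries were made from total RNA broken by alkali, from fragments of a narrow size class, and sequenced on an Ion Proton instrument, per the labels' protocols. The aligner is not given in the sources used here. For each library, raw unscaled counts of 5′ ends, 3′ ends and their sum at each position of 18S, 28S and 5.8S rRNA were deposited by the authors. The authors' score is deposited as a fraction from 0 to 1. Recomputed from the counts with 6 neighbours on each side, weights from 1 to 0.5 and negative values set to 0, it differed by at most 5e-13 over 358614 values. Positions are those of the deposited rRNA sequences, counted from 1, with no genome build.

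The catalogue of 110 sites (41 in 18S, 67 in 28S, 2 in 5.8S rRNA) came from general knowledge of snoRNA targets, with guides for 88 of them, and was placed on the deposited sequences by base and number. The members, the lists and the tests were chosen with earlier results of these data known. Sites with a mean score over the 16 human samples of at least 0.2 and a mean neighbour count of at least 50 were tested, 108 in all. Named were up to 12 falls and all rises called alike in 3 comparisons, sites with opposite calls, and 8 guides with 2 targets. Also named were 28S Um3904, 18S Um354 and Um1668, the sites that differed most between lines, and the 3 smallest differences.

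Library scores were averaged per sample and compared with limma 3.58.1 in R 4.3.3, with a variance prior that follows the mean and adjustment after Benjamini-Hochberg at 0.05, on 9 samples (endoderm, mesoderm, pluripotent) with the cell line as a block. The pairing comes from the lines. Deviations from the state means had correlations between states of 0.221 (H9), -0.0985 (HUES4) and -0.168 (KOLF2). H9 libraries of equal index were compared with index as a block, as were the 3 lines within endoderm. HUES4 and KOLF2 were compared as a difference of differences over libraries. Libraries of a sample are described as triplicates. Where they are technical, p-values among libraries measure only that spread. Index was read from the deposited tables. The library number is the number after the letter L in the names under which they were deposited, and was taken here as the batch. The comparisons with the edited clones and over positions outside the catalogue were added after the data were seen. Those with the clones of 1 genotype set 3 samples against 2, so that their p-values rest largely on the spread pooled over sites. The tests were tried on simulated scores. edgeR 4.0.16 on the read-end counts was an alternative, beside other scalings, filters, neighbour windows and left-out samples. Counting gave a score a median error of 0.00509, or 0.0177 in the shallowest library, against a median SD between libraries of 0.0172. Counting errors cover counting only, as reads carry no molecular identifiers.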

Additional observations from a re-analysis of the deposited data

Results flagged for a closer look

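The change from undifferentiated cells to endoderm differed between HUES4 and KOLF2 by a limma test of the difference itself at 14 sites, given as the change in HUES4 minus that in KOLF2. It was negative at 18S Cm174 (-0.601), 5.8S Um14 (-0.257), 18S Gm436 (-0.200), 18S Am576 (-0.133), 28S Gm3723 (-0.0709) and 28S Cm2811 (-0.0656). It was positive at 28S Um4590 (0.0828), 28S Am1521 (0.0544), 28S Gm4593 (0.0531), 18S Cm1391 (0.0443), 28S Am2350 (0.0406), 18S Am1383 (0.0317), 28S Gm3771 (0.0314) and 28S Gm2351 (0.0307). Undifferentiated HUES4 and KOLF2 carry different library numbers, so that line and batch cannot be told apart.

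18S Um354 had a signal in samples outside the comparison. It scored 0.745 in H9 mature neurons, 0.682 in late and 0.373 in early neural precursors, 0.378 and 0.294 in the SNORD52 knock-out clones and 0.123 in H9 mesoderm. It was at 0 in every library of undifferentiated H9 and of endoderm, in both overexpression clones and in mesoderm of HUES4 and KOLF2. The highest sample of the comparison was undifferentiated KOLF2, at 0.0116.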

How the results depend on the processing

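The count of calls across the 3 lines stayed within 1.5 times of 50 under every alternative run, from 34 without HUES4 to 75 without H9, with 63 by edgeR. Leaving out the pairing (no replicate block) gave 51 calls, and 42 scaled. Division by the median of each library gave 33 rises and 18 falls in place of 4 and 46. The scaled count of 42 was 1 without HUES4, 11 without KOLF2 and 49 without H9. Among matched H9 libraries the 51 calls became 25 after scaling, 32 without the index term and 4 from 3′ ends, and 0 to 61 with 1 index left out. There were 36 sites with an unadjusted p below 0.05 where the count was 0. The 4 sites that differed between lines within endoderm became 0 after scaling, without the index term, from 5′ ends and from 3′ ends, and 0 to 4 with 1 index left out. The 14 sites that differed between HUES4 and KOLF2 became 9 after scaling, 0 without the index term, 5 from 5′ ends and 3 from 3′ ends, and 0 to 14 with 1 index left out. The 2 calls against all 4 edited clones became 10 after scaling.

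Directions of named sites turned mostly with the kind of read end. From 5′ ends the unscaled differences were -0.0672 at 28S Um3904, 0.00463 at 28S Cm2338, -0.0411 at 28S Am3804 and 0.0100 at 28S Cm2811. The scaled 5′ differences were -0.054 at 28S Um3904, 0.00807 at 28S Cm3820, 0.0115 at 18S Am468, 0.0205 at 28S Cm2338, 0.00613 at 28S Cm2352, -0.0269 at 28S Am3804, 0.0142 at 18S Gm1328, -0.0185 at 28S Am1521 and 0.0258 at 28S Cm2811. In matched H9 libraries they were 0.0201 at 18S Gm436, 0.0186 at 28S Am2774, 0.00269 at 28S Cm2352, -0.0143 at 28S Am1511 and 0.00606 at 28S Cm2811. From 3′ ends the scaled difference was 0.022 at 28S Um4197. At 5.8S Um14 it was 0.0306, but the unscaled 3′ score was 1 in every library of both states. That value therefore comes from the scaling alone. With index as a term over libraries, 28S Um3904 had -0.0499, or -0.0241 scaled. Scaling turned 28S Am2802 (0.0271) and, in matched H9, 18S Am1383 (0.0119), and division by the median turned 28S Cm2338 (0.00661), 28S Am3703 (0.0309), 28S Am2802 (0.0444) and 28S Cm1327 (0.0415). The causes were not tested. Of the comparisons of single named sites with an alternative, 985 kept direction and call, 182 lost the call, 35 gained one and 28 turned.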
